A study of Capra hircus with 23 samples.

Results

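The RNA of goat ear fibroblasts in the second part of an 8-day chemical induction was compared here, as the 3 libraries of day 8 (5i8d1, 5i8d2 and 5i8d3) against the 3 libraries of day 4 (5i4d1, 5i4d2 and 5i4d3). These are 6 of the 17 libraries in the deposited tables, and the labels described 23 samples. The libraries were chosen by the day in their column names, and no day 0 library entered the tests. Both days started from the same kind of cells. By the methods of the paper on this induction, these were fibroblasts from the ear margin of Guanzhong dairy goats aged 2 to 3 months. The cells were plated on Matrigel and kept for 4 or 8 days in the induction medium that the titles call BFRTV and also 5i. The labels call the day 8 cells induced mammary epithelial cells. The 2 libraries of day 6 (5i6d1 and 5i6d2) were used to place the change in time, and those of days 0, 1, 2 and 3 only for levels.

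The same methods list forskolin, TTNPB, VPA, RepSox and tranylcypromine as the compounds of the 5i medium. They describe libraries of days 0 and 8 alone and do not say that these are the libraries used here, so the animals and the compounds are given on the ground that the labels name the same cells and medium. As background, forskolin raises cyclic AMP through adenylyl cyclase, and TTNPB activates retinoic acid receptors. VPA inhibits histone deacetylases, RepSox inhibits the TGF-beta type I receptor, and tranylcypromine inhibits the histone demethylase LSD1 and monoamine oxidases. When a fibroblast is turned towards an epithelial cell, genes of the mesenchymal state are generally silenced and genes of cell adhesion, polarity and keratins are switched on. In the mammary gland the epithelial cells make and secrete milk.

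The rows of the tables carry running IDs such as gene10783, which the files did not pair with gene names, and 0 of these IDs occurred in the RefSeq gene table for the assembly ARS1.2. Epithelial and fibroblast markers could therefore not be checked, and no pathway or cell type can be named. The rows are called features, and 4 of them are given by ID. No cells held for 4 or 8 days without the medium are among the labelled samples, so induction and time in culture cannot be told apart. In bulk RNA, fewer cells of a type and less RNA per cell cannot be told apart either.

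The 6 libraries held 22212525 to 26165393 counts each, and between 18950 and 19163 features had counts in them. A count of 0 allows a level of up to 3 counts, which at this depth is 0.115 to 0.135 CPM (the count per 1000000 counts of the library). Such limits cover counting error only. The libraries within a day were not equally alike. The chi-square per degree of freedom between their counts was 3.49 for 5i4d1 with 5i4d2 and 4.04 for 5i8d1 with 5i8d2, and 30.3 or more for 5i4d3 or 5i8d3 with the others of their day. The labels gave each of these days 1 sample under one title code and 2 under another, but did not tie columns to samples. Whether the libraries of a day come from separate cultures is therefore not known.

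Between day 4 and day 8 a large part of the tested features changed, mostly by small amounts. By the quasi-likelihood test of edgeR 7716 of 15551 tested features (49.6%) had an adjusted p under 0.05. Of these, 3825 were higher at day 8 (24.6% of those tested) and 3891 were lower (25%). The median size of the log2 fold change was 0.67 among the calls and 0.38 among all features tested, and 5210 of the calls (67.5%) changed by less than 2-fold. A change of at least 2-fold was found for 1252 of the higher and 1254 of the lower calls. The closely alike libraries 1 and 2 of each day were also summed to 1 sample, leaving 2 samples against 2. Then 4552 of 16223 tested features were called, 2181 higher and 2371 lower. With the library number as a block as well, 7159 were called.

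A change of at least 4-fold was found for 803 features, 5.16% of those tested. At day 8 there were 384 higher (2.47%) and 419 lower ones (2.69%) among them. Larger changes were more often increases. The log2 fold change had a size of at least 3 in 148 higher and 74 lower features, of at least 4 in 63 and 12, and of at least 5 in 25 and 4. At the edge of the 4-fold set, the smallest log2 fold change inside it was 2.004 among higher features, and the largest outside it was 1.995. Among lower features these sizes were 2.000 and 1.998.

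The libraries of the days did not overlap in CPM for 9634 of the 15551 features (62%), 3630 higher (23.3%) and 6004 lower (38.6%). With the TMM factors that the test uses, the split was 4686 higher and 4778 lower. The factors of day 8 were lower than those of day 4 by 0.12 on the log2 scale, so CPM alone places features lower at day 8 by about this amount. Fold changes are therefore given relative to that shift. In limma on log2(FPKM + 1), which has no TMM factors and differs from edgeR in test, scale and pseudocount as well, 36.4% of 7940 calls were higher, against 49.6% of the calls by edgeR. Among the 803 features of the 4-fold set, 802 had no overlap between the libraries, and among all calls 95.1% had none. The choice of these features by the same libraries favours this.

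**Figure D1:**
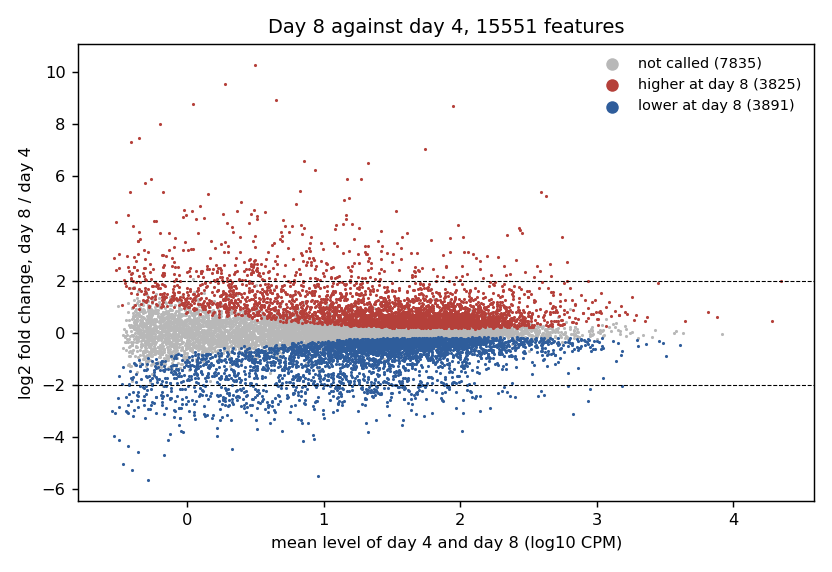
Each point is 1 of 15551 features; the x axis gives the mean of the day 4 and day 8 levels (log10 CPM) and the y axis the fitted log2 fold change of day 8 over day 4. Red points (3825) were called higher and blue points (3891) lower at day 8, grey points were not called, and dashed lines mark 4-fold. The highest increases reach further from 0 than the strongest decreases.

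For 4 features the values are given in full. The 2 higher and 2 lower ones were taken by a rule, as the largest in log2 fold change and in CPM difference among 223 higher and 247 lower features. The rule asked for a 4-fold change, at least 5 CPM in the higher day and no overlap between the libraries. Their values chose them, so these are descriptions.

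The feature gene28523 had the largest fitted increase among those that met the rule. It had 0 counts in 5i4d1, 5i4d2 and 5i4d3, and 136, 130 and 191 counts in 5i8d1, 5i8d2 and 5i8d3, or 6.12, 5.29 and 7.30 CPM. Against 3 counts over the whole day 4 group, its day 8 level was at least 148-fold higher, with an edgeR adjusted p of 7.75e-05. It also had 0 counts in all libraries of days 0, 1, 2 and 3, and it first appeared at day 6, with 0.947 CPM in 5i6d1 and 1.01 CPM in 5i6d2. All 3 day 8 libraries lay above both day 6 libraries.

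The feature gene21899 had the largest gain in CPM among those that met the rule, and lies just inside the 4-fold threshold. Its log2 fold change was 1.94 without 5i4d1 and 1.85 without 5i8d3. It stood at 341, 398 and 372 CPM in 5i4d1, 5i4d2 and 5i4d3, and at 1263, 1204 and 1636 CPM in 5i8d1, 5i8d2 and 5i8d3. This was a log2 fold change of 2.00 with an SE of 0.13 (adjusted p of edgeR 4.51e-05). At day 6 it was already at 1024 and 1180 CPM, close to the lowest day 8 library. Before day 4 it ran from 2.32 CPM in the day 0 library CK3 to 118.5 CPM in 5i3d1.

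The feature gene14110 had the strongest fitted decrease among those that met the rule. It stood at 12.8, 11.4 and 29.6 CPM in 5i4d1, 5i4d2 and 5i4d3, and fell to 0.225, 0.366 and 0.459 CPM in 5i8d1, 5i8d2 and 5i8d3, from 5, 9 and 12 counts. Its log2 fold change of -5.52 had an SE of 0.52 (adjusted p of edgeR 0.000175). In both days library 3 was the highest of its day. The day 6 libraries lay between, at 1.64 CPM in 5i6d1 and 3.59 CPM in 5i6d2, and the day 0 libraries at 52.0, 54.6 and 45.7 CPM.

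The feature gene10783 had the largest loss in CPM among those that met the rule. It stood at 2256, 2352 and 2854 CPM at day 4 and at 610, 600 and 448 CPM at day 8, in libraries 1, 2 and 3 in turn. Its log2 fold change of -2.04 had an SE of 0.16 (adjusted p of edgeR 8.29e-05). At day 6 it had 629 and 618 CPM, both just above the highest day 8 library, so nearly all of its fall lay before day 6. Without 5i4d3 or 5i8d3 its log2 fold change was -1.93 or -1.92, which is less than 4-fold. Among the earlier libraries it was highest in 5i1d1, at 7988 CPM, and lowest in CK3, at 68.6 CPM.

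**Figure D2:**
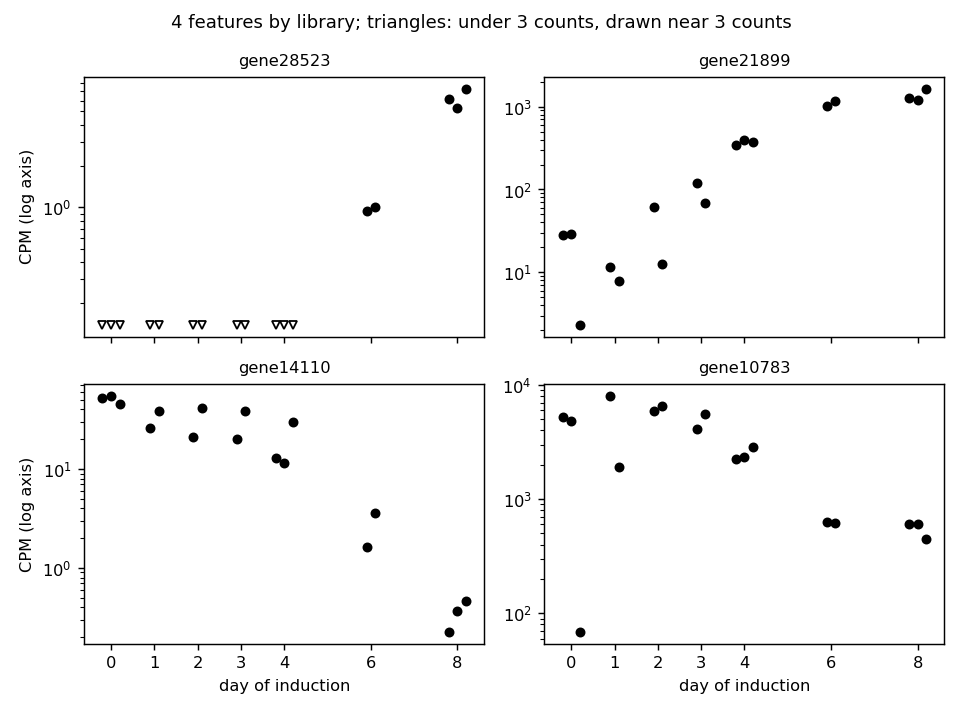
The y axes give CPM (log scale) and the x axes the day of induction, for gene28523, gene21899, gene14110 and gene10783, with 1 point per library for 17 libraries; open triangles stand for libraries with under 3 counts, drawn near the level of 3 counts. gene28523 appears at day 6 and reaches 5.29 to 7.30 CPM at day 8, while gene14110 ends at 0.225 to 0.459 CPM.

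The features that changed were followed through the other libraries. Of these, the day 0 library CK3 stood apart, with 15605 features with counts against 18093 in CK1 and 18102 in CK2, so day 0 is given with and without it. The higher 4-fold features had a median level of 1.09, 1.07 and 0.686 CPM in 5i4d1, 5i4d2 and 5i4d3, and of 7.59, 7.01 and 5.60 CPM in 5i8d1, 5i8d2 and 5i8d3. These 2 days chose the features, and days 0 to 3 did not. In CK1 and CK2 the median was 0.125 and 0.123 CPM, at day 2 it was 0.382 and 0.279 CPM, and at day 3 it was 0.594 and 0.312 CPM. In each of the 3 day 4 libraries the median was above that of every earlier library. Of the 384 features, 194 (50.5%) stayed under 1 CPM in all 9 libraries of days 0 to 3, against 5.15% of all features tested. The choice of the features by their increase after day 4 favours such a pattern. Day 8 was the day with the highest mean for 351 of them (91.4%), and for 354 with CK1 and CK2 alone as day 0. Over all features tested day 8 was the highest day for 22.2%.

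The lower 4-fold features had a median level of 6.39, 6.67 and 10.5 CPM in 5i4d1, 5i4d2 and 5i4d3, and of 0.990, 1.18 and 1.22 CPM in 5i8d1, 5i8d2 and 5i8d3. In the libraries of days 1 to 3 their median was 9.54 CPM or more, at 15.8 and 15.0 CPM at day 1, 13.1 and 18.2 CPM at day 2, and 9.54 and 17.0 CPM at day 3. In CK1 and CK2 it was 12.2 and 12.4 CPM, and in CK3 it was 1.86 CPM. The mean was highest at day 1 for 139 of the 419 features (33.2%), at day 2 for 95, at day 3 for 84, at day 0 for 62 and at day 4 for 39. With CK1 and CK2 alone, day 0 was highest for 72. The choice by a fall between days 4 and 8 leaves out day 8 as the highest day. Day 1 was the highest day for 18.8% of all features tested, or for 23.8% without CK3.

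The lower 4-fold features included both features whose level was higher in the fibroblasts of day 0 than at day 4 and features for which the reverse held. The day 4 mean lay above the day 0 mean for 230 of the 419 (54.9%), or for 211 (50.4%) without CK3, against 70.3% and 64.5% of all features tested. At day 8, 56 of the 419 (13.4%) lay above day 0, or 50 (11.9%) without CK3, against 62.0% and 53.6% of all features tested. The choice by a fall to day 8 favours a low share. Of the higher 4-fold features, 329 of 384 (85.7%) were above day 0 at day 4 already, or 333 without CK3. The levels of days 0 and 8 in these sentences come without a test, and day 4 takes part in the choice of the features.

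**Figure D3:**
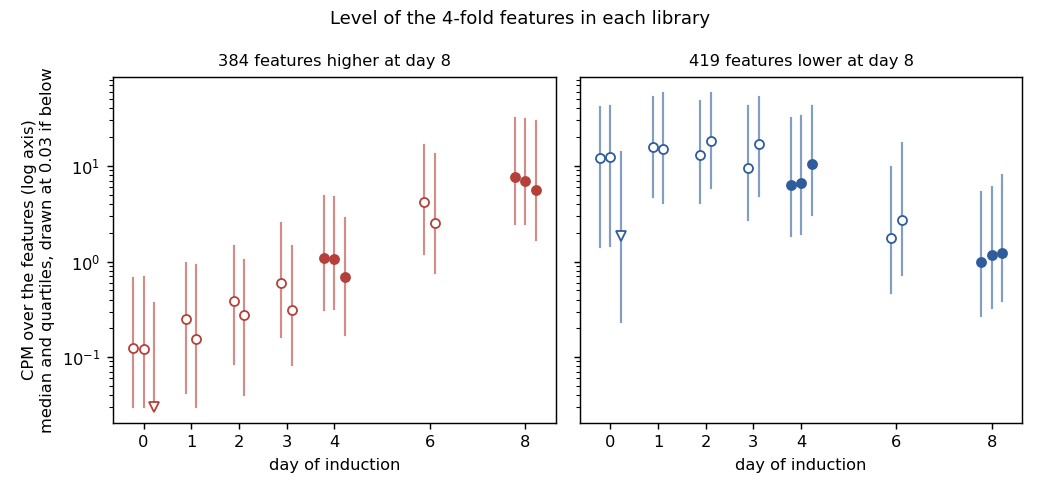
The y axis gives CPM (log scale) and the x axis the day of induction, for the 384 higher (left) and 419 lower (right) 4-fold features, with 1 symbol per library at the median and a line from the lower to the upper quartile; filled circles are the libraries of days 4 and 8, which chose the features, and the triangle is CK3. The median of the higher set goes from 0.686 to 1.09 CPM at day 4 to 5.60 to 7.59 CPM at day 8.

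The libraries of a day differed more often among the 4-fold features than among all features tested, except among the lower ones at day 8. The libraries of day 4 lay 1 or more apart on log2(CPM + 1) for 78 of the 384 higher features (20.3%) and 95 of the 419 lower ones (22.7%), against 3.14% of all features tested. In 65 of these 78 the library 5i4d3 was the lowest of its day, and in 93 of the 95 it was the highest, so 5i4d3 stood further from day 8 than the other day 4 libraries. At day 8 the libraries lay that far apart for 77 higher features (20.1%) and 6 lower ones (1.43%), against 1.62% of all features tested. In 64 of the 77 the library 5i8d3 was the lowest. The change itself was similar within each number. For the higher 4-fold features the median difference on log2(CPM + 1) was 1.83 from 5i4d1 to 5i8d1, 1.77 from 5i4d2 to 5i8d2 and 1.86 from 5i4d3 to 5i8d3. For the lower ones it was -1.74, -1.77 and -2.03. Without 5i4d3 the 4-fold set held 705 features, 374 higher and 331 lower.

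The libraries of day 6 served to place the change in time. In one fit of the 8 libraries of days 4, 6 and 8, edgeR called 3670 of 16099 features between day 6 and day 4 (22.8%), 1882 higher (11.7%) and 1788 lower (11.1%). Between day 8 and day 6 it called 41 features (0.255%), 27 higher (0.168%) and 14 lower (0.087%), and 2121 had an unadjusted p under 0.05. These counts alone do not show that the first step was larger. The difference between the steps was tested itself, as the change from day 6 to day 8 minus the change from day 4 to day 6. By edgeR 0 features passed (smallest adjusted p = 0.264), 1321 had an unadjusted p under 0.05, limma called 0 and DESeq2 called 90. Of those 90, 69 had the more negative change in the second step.

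The counts of these steps depended on single libraries. For day 6 against day 4 the count was 937 without 5i6d1, 2391 without 5i4d1 and 1839 without 5i4d2. For day 8 against day 6 it was 387 without 5i6d1 (87 higher and 300 lower) and 4 without 5i6d2. It was 5, 8 and 86 without 5i4d1, 5i4d2 and 5i4d3, and 2, 2 and 15 without 5i8d1, 5i8d2 and 5i8d3. The test of the difference between the steps gave 27 without 5i6d1 and 3 without 5i6d2, and 0 without any one of the other libraries. The day 6 libraries were not alike, with a chi-square per degree of freedom of 48.1 between them. The rank correlation of 5i6d1 with the day 8 libraries was 0.988 to 0.992, and that of 5i6d2 was 0.975 to 0.988.

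Among the 41 features called between day 8 and day 6, the 27 higher ones had a median log2 fold change of 1.47, between 0.56 and 5.42, and 9 of them had a mean under 1 CPM at day 4. The 14 lower ones had a median of -0.88, with sizes between 0.52 and 1.77. The feature gene28523 was among the 27 higher ones, with a log2 fold change of 2.70 from day 6 to day 8 (SE 0.26, edgeR adjusted p = 0.0271). The features gene21899, gene14110 and gene10783 were not called for this step, with log2 values of 0.35 (SE 0.14), -2.83 (SE 0.615) and -0.13 (SE 0.16).

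The place of day 6 on the way from day 4 to day 8 was also measured in each day 6 library, for the 1252 higher and 1254 lower features of at least 2-fold. Days 4 and 8 chose these features and day 6 did not, so the end points are drawn apart by the choice and the values carry no test. By the mean of day 6, 75.4% of the higher and 85.6% of the lower features were past 50% of their change on log2(CPM + 1). In 5i6d1 these shares were 79.6% and 93.5%, and in 5i6d2 they were 48.3% and 54.7%. The median feature had covered 76.1% of its way up and 80.4% of its way down in 5i6d1, and 48.6% and 52.9% in 5i6d2. Hence 5i6d1 stood nearer to day 8 and 5i6d2 near the middle.

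This gap between the day 6 libraries depended on which libraries marked the ends. With 5i4d3 and 5i8d3 as the ends, 5i6d2 had covered 62.3% of the way up and 63.0% of the way down at the median, and 5i6d1 83.6% and 88.6%. With the libraries 1 and 2 of both days as the ends, 5i6d2 had covered 41.2% and 46.3%, and 5i6d1 71.5% and 76.1%. On shared ends 5i6d1 was further along in each case. However, the deviations of 5i6d2 from the day 6 mean went with those of 5i4d3 (correlation 0.561) and 5i8d3 (0.656). Those of 5i6d1 went with libraries 1 and 2 of both days (0.411 to 0.533). With ends matched in this way, 5i6d1 had covered 71.5% and 76.1%, and 5i6d2 62.3% and 63.0%. Whether the gap is one of time or of this split of libraries was not tested. Most features moved in the same direction in both steps of the fit, 1156 of 1252 higher (92.3%) and 1168 of 1254 lower (93.1%), against 67.3% of all features tested, and the choice of the features favours this. In the first step the higher features changed by 1.07 at the median (log2) and in the second by 0.50. For the lower ones these medians were -1.0 and -0.63.

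**Figure D4:**
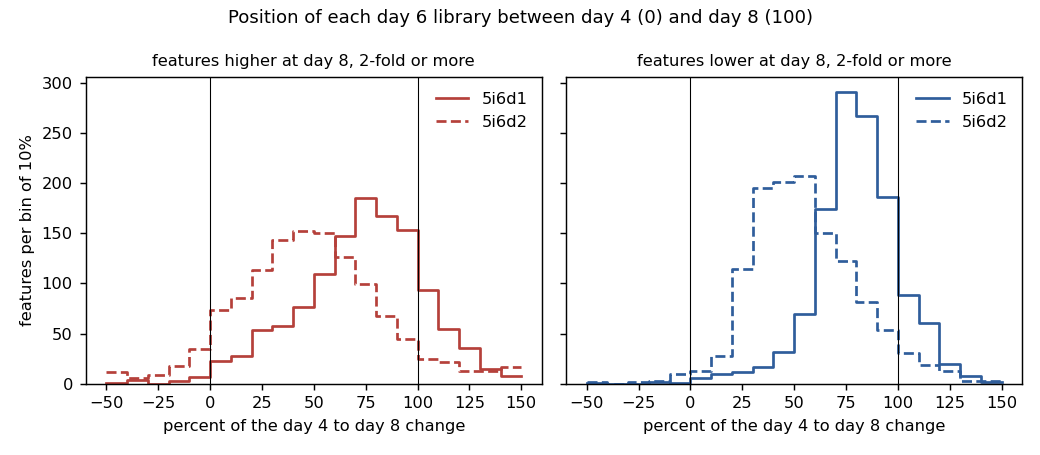
Number of features in bins of 10% against the percent of the change from the mean of day 4 (0) to the mean of day 8 (100) on log2(CPM + 1), for 1252 higher (left) and 1254 lower (right) features of at least 2-fold, with values beyond -50 or 150 drawn in the end bins. The solid line (5i6d1) lies to the right of the dashed line (5i6d2), with medians of 76.1% against 48.6% on the left and 80.4% against 52.9% on the right.

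There were 6 features with 0 counts throughout day 4 and at least 10 counts in every library of day 8. The reverse was found for 0 features. The 6 features reached mean levels of 0.780 to 6.24 CPM at day 8. Of these, 5 had 0 counts in all libraries of days 1 to 3 and 4 in all libraries of day 0. At day 6, 1 of them had 10 or more counts in 5i6d1 and 2 in 5i6d2. The feature gene28523 was 1 of them. Their counts on both days chose these features, so no test is given.

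The number of calls depended on the level of a feature, and the direction of the calls on its length. The tested features were divided into 4 bins of equal size, of about 3888 features each. In the bin of the lowest mean level (0.280 to 5.23 CPM) 35.5% were called, against 49.1%, 54.4% and 59.5% in the next bins. The median SE of the log2 fold change was 0.32 in the lowest bin and 0.08 in the highest. Changes of 4-fold were more frequent at low levels, with 11.01% in the lowest bin and 2.24% in the highest. Feature length, which was recovered from the counts and the FPKM values, divided the calls by direction. In the bin of the shortest features (66 to 1780 nt) 33.5% of 1789 calls were higher at day 8. The share was 46.2% and 52.9% in the next bins, and 63.6% of 2059 calls in the bin of the longest features (4533 to 113500 nt).

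The trend with length was present in all bins of level but the lowest. In the highest bin, 33.8% of the calls among the shortest features were higher and 72.8% among the longest. In the next lower bin these shares were 22.7% and 63.5%, and in the one below it 26.0% and 54.5%. In the bin of the lowest level the shares were 50.5% and 45.7%, in the other direction. Among the 4-fold calls it was not seen either, since 110 of 213 were higher in the shortest bin and 73 of 182 in the longest. The gap between the longest and the shortest bin was 30.1 percentage points with all libraries, and 25.9 to 32.5 when single libraries were left out. It was seen in each library as a shift of the median of these bins. Relative to the mean of the 8 libraries on log2(CPM + 1), the median of the longest minus that of the shortest features was -0.09, -0.11 and -0.17 in the day 4 libraries. It was 0.10, 0.04 and 0.13 in the day 8 libraries, which did not overlap with those of day 4, and 0.09 and 0.05 at day 6. The mean length weighted by counts was 3914 to 3971 nt at day 4 and 3934 to 4118 nt at day 8, with overlap. Whether RNA quality or library preparation took part in this trend was not tested.

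**Figure D5:**
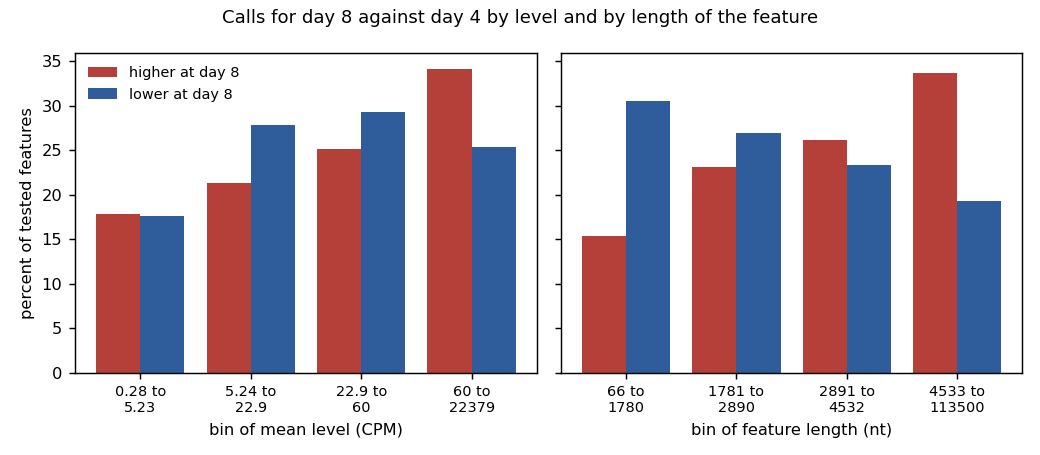
Percent of the tested features that were called higher (red) or lower (blue) at day 8 against day 4, by bin of the mean level (left, CPM) and by bin of the feature length (right, nt), with about 3888 features in each bin. With length the red bars grow and the blue bars shrink, from 33.5% to 63.6% of the calls being higher.

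The features that were called higher held 25.1% to 28.2% of the counts of the day 4 libraries, 36.5% to 40.0% at day 6 and 42.1% to 43.8% at day 8. The higher 4-fold features held 0.271% to 0.387% at day 4 and 2.07% to 2.29% at day 8, and the lower ones went from 1.89% to 2.95% down to 0.372% to 0.451%. The 100 most abundant features of each library took 19.8% to 20.1% of the counts at day 4 and 22.1% to 23.7% at day 8, without overlap, and 22.9% and 21.3% in 5i6d1 and 5i6d2. Without the most abundant feature of day 8, the other features of these 100 took 18.6% to 19.2% of the counts at day 4 and 19.2% to 19.7% at day 8. The 10 largest gains in mean CPM, between 941 and 25480 CPM, made 26.0% of all CPM gained. The 10 largest losses, between 972 and 2173 CPM, made 8.15% of all CPM lost. All of these 20 features were called and their libraries did not overlap, against 49.6% and 62% of all features tested. Their choice by the difference in mean CPM favours this.

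The most abundant feature of day 8 made the largest of these gains, 15.1% of all CPM gained. It was singled out after its values were seen. It took 1.19%, 1.11% and 0.586% of the counts of 5i4d1, 5i4d2 and 5i4d3, and 3.94%, 4.04% and 2.56% of those of 5i8d1, 5i8d2 and 5i8d3. The 95% Wilson intervals of these shares reach at most 0.0081 percentage points to each side. They cover counting error only, which is far less than the spread between the libraries of a day. Its log2 fold change of 2.00 had an SE of 0.29 (adjusted p of edgeR 0.00123), just under the 4-fold threshold before rounding. At day 6 it took 3.37% in 5i6d1 and 1.97% in 5i6d2, and in both days 4 and 8 library 3 held the lowest share.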

How the data were processed

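Total RNA was depleted of ribosomal RNA and sequenced. The authors deposited raw counts per feature and, in a further table, FPKM. FastQC 0.10.1, HTSeq and DESeq2 1.16.1 occur in the submitters' processing notes. The sources used here did not give the aligner, the genome build or the annotation. All 22657 FPKM values per library equalled the deposited count over the library total and a single length, within a relative tolerance of 1e-06, and this gave the feature lengths.

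Day 8 was tested against day 4 in 6 libraries in R 4.3.3 by edgeR 4.0.16 (normalization by TMM, the filter filterByExpr, the quasi-likelihood test and Benjamini-Hochberg adjusted p-values), and the day 6 steps in 8 libraries. SE is the log2 fold change over the square root of F. The paper's methods, which do not say that they cover these libraries, used DESeq with a log2 ratio of 2 and a p under 0.05. Alternatives were DESeq2 1.42.0, limma 3.58.1 with a trend, other normalizations and filters, the replicate block, summed near pairs and leaving out libraries. The tests were checked on simulated counts, drawn independently for each library. This check therefore does not cover the closer likeness of libraries 1 and 2 of a day. The comparison, thresholds and rules were chosen with earlier results of these data known. Features given by ID passed 0.05 in adjusted p, were at least 4-fold changed, had a mean of 5 CPM in the higher day and no overlap of libraries. In each direction the largest fold change and the largest CPM difference were taken. Columns were assigned to days by name, and p-values measure the spread between libraries, which may be technical. Same-numbered libraries of days 4 and 8 deviated together, with correlations across 14178 features of 0.309, 0.225 and 0.462 for numbers 1, 2 and 3, all above the limit of 0.1 at which the numbers were taken to pair these days. However, 5i4d1 correlated more with 5i8d2 (0.325) and 5i4d2 more with 5i8d1 (0.25) than with their own number, so only library 3 was told from the others. This pairing comes from the data, not from the labels. It entered only the fits with the replicate block, and the main fits had no block. The 6 samples of passaged induced cells and natural mammary epithelial cells were not analysed here.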

Additional observations from a re-analysis of the deposited data

How the results depend on the processing

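Day 8 against day 4 gave 7716 calls, 5978 to 7801 without single libraries and 8600 with the replicate block, of which 7632 were called in the same direction as without it, and the 4 features given by ID kept an adjusted p under 0.05 under it. DESeq2 called 7701, 7496 of them shared in direction. With near pairs summed the count was 4552 (4488 shared), where fewer samples were fitted. The threshold of the paper's methods asks for a 4-fold change and a p under 0.05, taken here as unadjusted. In the edgeR fit 804 features met it, a count that compares with the 4-fold set and not with all calls. The 4-fold set held 803 features, and 705 to 998 without single libraries. It held 377 when a mean of 5 CPM was required, so that fewer features were tested. With limma it held 217 on log2(FPKM + 1) and 599 on log2(FPKM + 0.1). A larger pseudocount shrinks folds of low features more, and limma here also differs from edgeR in test and scale. Day 6 against day 4 gave 3670 calls by edgeR and 937 to 3770 without single libraries. The share of its calls that were higher was 51.3%, and 29.4% and 30.6% with limma on log2(FPKM + 1) and log2(FPKM + 0.1). Day 8 against day 6 gave 41 calls by edgeR, 561 by DESeq2, 128 without a filter, 296 with the replicate block and 2 to 387 without single libraries. Higher calls were 65.9% of them, but 39.8% with DESeq2, 40.6% without a filter and 35.1% with the block, so this balance has no stable direction. The numbers did not pair day 6 throughout. With 2 libraries, the deviations of 5i6d2 are by construction the reverse of those of 5i6d1, so the values of the 2 are not independent. 5i6d1 went with 5i4d1 (0.504) and 5i8d1 (0.533). 5i6d2 went with 5i4d3 (0.561) and 5i8d3 (0.656), and not with 5i4d2 (-0.411) and 5i8d2 (-0.439). The difference between the steps gave 0 calls, 90 with DESeq2 and 0 to 27 without single libraries. The shares past 50% at day 6 were 75.4% and 85.6%, and 48.3% and 54.7% with 5i6d2 alone. Without single day 4 or day 8 libraries, which was added after seeing the data, they were 64.5% to 79.5% and 77.8% to 89.5%. The gap in direction between long and short features, also added then, was 30.1 percentage points, 38.5 with a minimum mean of 5 CPM, 25.7 and 25.2 with limma at the larger and smaller pseudocount, and 25.9 to 32.5 without single libraries. The causes of these differences were not tested. The 4 features given by ID kept their direction and an adjusted p under 0.05 wherever they were tested, and gene28523 did not reach the 5 CPM minimum over the 6 libraries. gene21899 and gene10783 did not keep the 4-fold change of the rule. gene21899 (2.004) was under 2 with the block (1.997), with limma (1.856 and 1.872), without 5i4d1 (1.938) and without 5i8d3 (1.853). gene10783 (-2.04) was at -1.93 without 5i4d3 and -1.92 without 5i8d3. Low depth limits features near 3 counts.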

Other observations

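Features with other ID prefixes were few. Of 162 features whose IDs begin with id, 3 were tested for day 8 against day 4 and 2 were called, and of 24 that begin with rna, 12 were tested and 6 were called, 4 of them higher. Among the features whose IDs begin with gene, 7708 of 15536 were called.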
